A study of Rattus norvegicus with 2 samples.

Results

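The regions described here are HMGB2 peaks that were called in phenylephrine-treated heart muscle cells and that lie wholly inside long stretches where untreated cells had no HMGB2 peak. Such a stretch is called a basal desert below. It runs for at least 1 Mb from the end of 1 basal peak to the start of the next on the same chromosome, on chromosomes 1 to 20 of the rat genome (build rn4). There were 225 basal deserts, and they held 1223 of the 41551 phenylephrine peaks on these chromosomes, 2.94% (Wilson 95% interval 2.79 to 3.11%). The whole phenylephrine list held 42691 peaks and the whole basal list 43721. Positions in both lists chose these peaks, so the absence of basal peaks around them is a given and not a finding.

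The study mapped HMGB2 by chromatin immunoprecipitation and sequencing (ChIP-seq) in ventricular myocytes of newborn Sprague Dawley rats. Both groups were primary cultures from pups 1 day old, plated for 24 h in serum and then moved to a medium with insulin, transferrin and selenium, and no genetic change was given for either. The basal group had no treatment, and the other received phenylephrine at 10 µM for 48 h. Each group was 1 library, so the spread between cultures is unknown, the treatment could not be tested, and every difference is one between 2 libraries or between sets of peaks within 1 library. The labels do not state the sex of the pups, how many hearts were pooled or how many cells other than myocytes the cultures held, and peak positions cannot check the cell type.

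HMGB2 is an abundant chromatin protein of the high mobility group box family. Its HMG boxes bind the minor groove of DNA with little preference for sequence and bend it, and the family is known to compete with linker histones and to loosen local packing. Phenylephrine activates alpha-1 adrenergic receptors and brings on hypertrophic growth in such cultures, with larger cells and a return of fetal genes. The gene content and packing of the deserts were not measured here.

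Phenylephrine peaks were found in nearly every basal desert, but thinly. Of the 225 deserts, 218 held at least 1 phenylephrine peak, 96.9% (93.7 to 98.5%), and 7 held 0. Of all 1 Mb bins of these chromosomes, 98.6% held a phenylephrine peak. Both shares are near their ceiling, and the bins are shorter than the deserts, so nothing is read from this comparison. Inside deserts there were 3.44 phenylephrine peaks per Mb (exact Poisson 95% interval 3.25 to 3.64), and over the rest of the chromosomes 18.3 per Mb (18.2 to 18.5). Basal deserts were thus 5.33 times poorer in phenylephrine peaks than the remainder. These intervals cover counting error only, and neighbouring peaks are not independent.

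**Figure D1:**
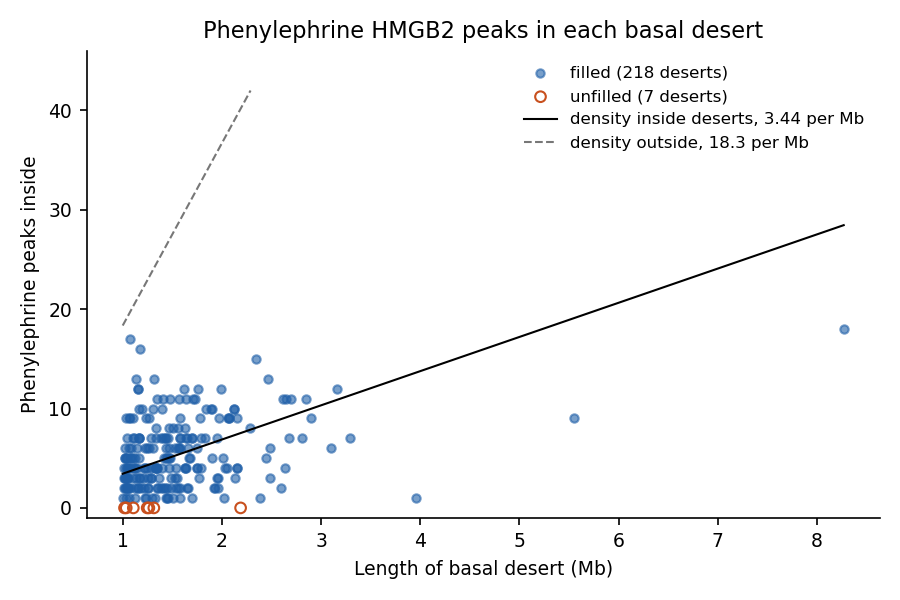
Number of phenylephrine HMGB2 peaks (y axis) against the length of each of the 225 basal deserts in Mb (x axis). Filled dots are the 218 deserts with a peak and open circles the 7 without. The solid line is the density inside deserts, 3.44 per Mb, the dashed line the density outside, 18.3 per Mb, and all 225 deserts lie under the dashed line.

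The deserts added up to 356 Mb, 13.9% of the 2553 Mb between the first and last peaks of the 20 chromosomes. They were 1.00 to 8.27 Mb long, with a median of 1.42 Mb (quartiles 1.16 and 1.75 Mb). The median desert held 5 phenylephrine peaks (quartiles 3 and 7), and the most in any desert was 18. A single peak lay in 17 deserts, 2 to 4 peaks in 85, 5 to 9 in 83 and 10 or more in 33. The last group held 388 of the 1223 peaks, 31.7%. In the plot of peaks against length the longer deserts did not hold many more peaks. Over the 225 deserts, length and number of peaks had a Spearman's rho of 0.27 and a Pearson's r of 0.32, which describe 1 pair of lists and carry no test.

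The desert with the highest density lay on chromosome 2 (248366150 to 249437526). It was 1.07 Mb long and held 17 phenylephrine peaks, 15.9 per Mb (9.24 to 25.4), which is within counting error of the density outside deserts. Its peaks were spread along the desert, the first 100 kb from the left edge and the last 42.9 kb from the right edge. Neighbouring peaks lay 3.11 to 157 kb apart, with a median of 57.1 kb, and the longest stretch without a phenylephrine peak was 0.157 Mb. The scores, which are the authors' own value for each peak, ran from 50.5 to 117.5 with a median of 58.5, so most were close to the lowest score in the list, 50. The strongest was at 248892022 to 248892904, 883 bp wide, and ranked 1475 among the phenylephrine peaks. Within 1 Mb on both sides of this desert there were 11.5 phenylephrine and 4.5 basal peaks per Mb. The desert itself had more phenylephrine peaks per Mb than these flanks, but its interval includes 11.5. It was also picked out as the densest of the 225, so little is read from this difference.

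A desert on chromosome 4 (130556304 to 131726097, 1.17 Mb) held 16 phenylephrine peaks, 13.7 per Mb (7.82 to 22.2). Here the peaks formed groups. The first 7 lay between 130577701 and 130851774, the next 6 between 131090235 and 131255795, and the last 3 between 131593152 and 131663512. The longest stretch without a phenylephrine peak was 0.337 Mb, between the last of these groups and the one before it. The strongest peak, at 131124378 to 131125314, scored 107.75 and was 937 bp wide, one of the 5 widest in any desert. The flanks held 20.0 phenylephrine and 22.5 basal peaks per Mb, close to the means outside deserts, 18.3 and 19.3.

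The longest desert lay near the start of chromosome 13 (2405240 to 10675368, 8.27 Mb). It held 18 phenylephrine peaks, the most of all, but only 2.18 per Mb (1.29 to 3.44). Its first peak, at 2790057 to 2790530, was the strongest with a score of 97.7, and 1.53 Mb without any phenylephrine peak followed it. The median distance between neighbours was 307 kb. This desert also held the 5 members farthest from any basal peak, led by one at 6331877 to 6332280 (404 bp, score 65.6), 3927 kb from the nearer edge. Next in number of peaks came chromosome 15 (78263200 to 80605376) with 15, or 6.404 per Mb (3.58 to 10.6), and chromosome 11 (20430460 to 22899256) with 13, or 5.27 per Mb (2.80 to 9.005). The chromosome 11 desert had 2.5 phenylephrine and 2.0 basal peaks per Mb in its flanks. Another desert (18134257 to 20422293) took up nearly all of its left flank, so the low basal value is partly given by the rule. The chromosome 15 desert was uneven: 710 kb free of peaks lay between its first peak and the next, and 3 of its 15 peaks lay between 80586622 and 80598192, at its right end.

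Among the other very long deserts the numbers differed widely. A desert of 5.55 Mb on chromosome 13 (23295661 to 28845244) held 9 phenylephrine peaks, 7 of them in its left part between 23308375 and 25086763. A desert of 3.96 Mb on chromosome 7 (3273491 to 7234582) held 1 peak only, at 3768467 to 3768987 (521 bp, score 76.2). It left 3.47 Mb free, the longest stretch without a phenylephrine peak in any of the deserts. On chromosome 3 a desert of 3.29 Mb (69306809 to 72595261) held 7 peaks, and on chromosome 13 one of 3.16 Mb (60584434 to 63740783) held 12. In the latter no stretch over 0.394 Mb was free of phenylephrine peaks.

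The 7 unfilled deserts covered 9.17 Mb and were 1.02 to 2.19 Mb long. The longest lay on chromosome 8 (15855806 to 18044564, 2.19 Mb), and the third in length followed it directly (18045520 to 19309078, 1.26 Mb). A single basal peak of 955 bp with a score of 83.0, at 18044565 to 18045519, separated them, so 3.45 Mb of chromosome 8 held 1 basal and 0 phenylephrine peaks. Of the others, 2 lay on chromosome 1 (66182807 to 67496584, 1.31 Mb, and 165091127 to 166337790, 1.25 Mb) and 1 each on chromosomes 4 (107465525 to 108572418), 15 (34202368 to 35237902) and 13 (332980 to 1351003). Their surroundings differed. The flanks of the chromosome 15 desert held 24.5 phenylephrine and 34.5 basal peaks per Mb, and those of the first chromosome 1 desert 17.0 and 22.5, beside means outside deserts of 18.3 and 19.3. The flanks of the longest unfilled desert held 1.5 and 2.5, but the unfilled desert that followed it took up nearly all of its right flank. A count of 0 allows up to 1.37 peaks per Mb in the longest unfilled desert and 2.95 per Mb in the shortest (3 counts per desert, a bound on 1 side for counting error only, tighter than the 2-sided intervals above), beside a mean of 3.44 per Mb over all deserts, of which these 7 are the lowest.

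In 178 of the 225 deserts, no stretch of 1 Mb stayed free of phenylephrine peaks. In the other 47, 20.9% (16.1 to 26.7%), at least 1 Mb did. The median desert was only 1.42 Mb long, so few peaks were needed to leave no such stretch, and little is read from these counts. The longest free stretch took up a median of 46.1% of its desert (quartiles 33.1 and 60.8%) and was 0.629 Mb long in the median. In 67 deserts it was under 0.5 Mb. A density of at least 5 peaks per Mb was reached in 50 deserts and one of at least 10 in 5. None reached the density outside, and in 3 the upper bound did.

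When the same rule was turned round, fewer and emptier regions were found. The phenylephrine list left 86 deserts, 121 Mb in total, and they held 152 basal peaks. Of these, 65 were filled, 75.6% (65.5 to 83.4%), at 1.26 basal peaks per Mb (1.07 to 1.48) against 17.4 per Mb elsewhere, a deficit of 13.8 times. Both kinds of desert coincided over 83.8 Mb, which is 69.5% of the phenylephrine desert length and 23.6% of the basal. Most of the sequence empty in the phenylephrine list was therefore also empty in the basal list, and most of the sequence in basal deserts was not in a stretch of 1 Mb empty of phenylephrine peaks. The basal list is slightly longer (42482 peaks on these chromosomes). In another setting both lists were cut to the same number of top-scoring peaks, far below either full list, and deserts were drawn again. The 374 basal deserts, 716 Mb in total, then held 1620 phenylephrine peaks. Of the phenylephrine peaks kept, 19155 lay outside deserts, against 40328 in the full list. The phenylephrine deserts drawn in the same way held 295 basal peaks, in the same order. These are counts and not densities. When only peaks scoring at least 100 were counted inside the deserts of the full lists, the order turned, with 35 phenylephrine and 38 basal peaks. That score keeps 7.24% of the phenylephrine peaks, but 32.4% of the basal peaks that form no desert edge. The scale may differ between the lists, so nothing is read from this turn.

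The deserts were the far end of a gradual change and not a class of their own. All stretches between neighbouring basal peaks were grouped by length, and the phenylephrine peaks lying wholly inside them were counted. Stretches under 50 kb held 21.9 phenylephrine peaks per Mb (21.5 to 22.3) and those of 100 to 250 kb 13.9 (13.6 to 14.2). Stretches of 500 to 1000 kb, just too short to be deserts, held 5.68 (5.43 to 5.93). Deserts of 1 to 2 Mb held 3.75 (3.51 to 3.99) and the 36 deserts of 2 Mb or more 2.63 (2.32 to 2.97). Each of the 7 length classes was poorer in phenylephrine peaks than the shorter class before it, with intervals that do not overlap. The rule chose the last 2 classes by their lack of basal peaks, so the order is a description of how both lists vary together.

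**Figure D2:**
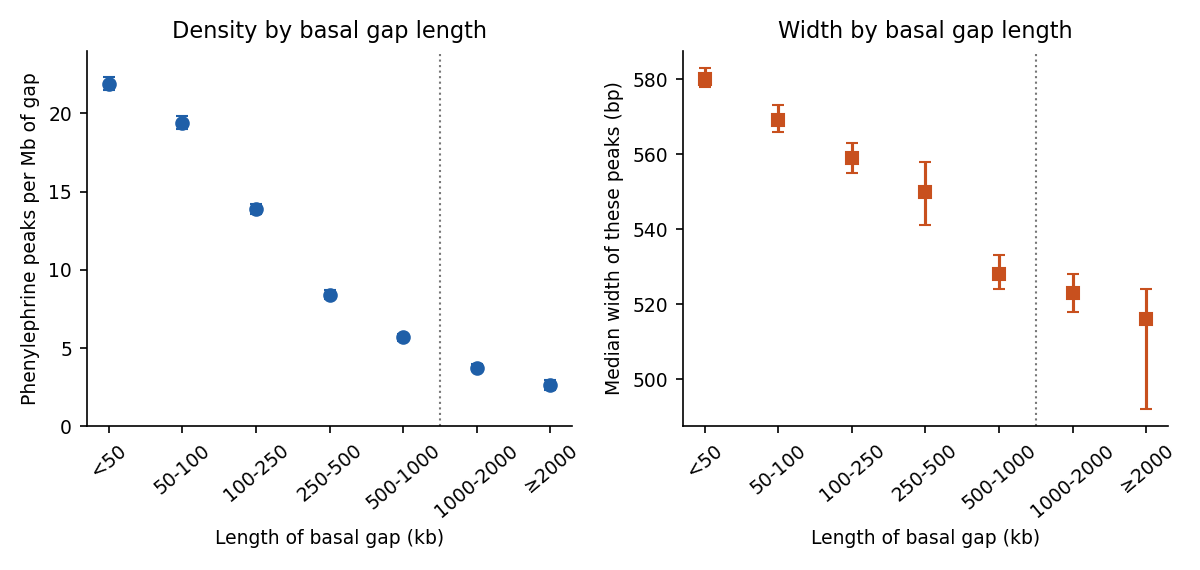
Phenylephrine peaks per Mb (left) and their median width in bp (right) in stretches between neighbouring basal peaks, by length of the stretch in kb. Bars are exact Poisson (left) and binomial (right) 95% intervals, the right axis does not start at 0, and the dotted line marks the 1 Mb limit of a desert; both quantities are lowest in the 2 classes of deserts, at 3.75 and 2.63 peaks per Mb and 523 and 516 bp.

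At the limit itself the values overlapped. The 2 shortest deserts, of 1003 kb on chromosome 6 (84295520 to 85298745) and 1012 kb on chromosome 18 (36934730 to 37946814), held 1 and 2 phenylephrine peaks. The 2 longest stretches that fell short, of 998 kb on chromosome 16 (12040021 to 13038093) and 994 kb on chromosome 2 (106263693 to 107258127), held 4 and 12.

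Phenylephrine peaks thinned out within the first 200 kb inside a desert. Over the 450 desert edges there were 6.18 phenylephrine peaks per Mb (5.19 to 7.29) in the first 50 kb inside and 4.89 (4.02 to 5.89) in the next 50 kb. Between 150 and 200 kb inside there were 3.47 (2.74 to 4.33), and from there to 500 kb the values stayed between 2.67 and 3.87. In the 50 kb just outside the edge there were 11.8 (10.4 to 13.3) phenylephrine peaks per Mb, the highest value of the profile. Outside the edge, at 50 to 100 kb, there were 9.07 (7.87 to 10.4) phenylephrine and 8.22 (7.08 to 9.50) basal peaks per Mb. Both phenylephrine values lay below the mean outside, 18.3 per Mb. That mean leaves out all deserts, while the space beside an edge can include a neighbouring desert, so they are not measured alike. The phenylephrine list did not drop to 0 at the edge as the basal list does by construction. Relative to desert length, the outer 10% on both sides held 27.6% of the members (25.1 to 30.1%). The innermost part, between 40 and 50% from an edge, held 16.6% (14.6 to 18.8%). An even spread would give each such part the same share. From 20% inward the 3 parts held 3.14, 2.95 and 2.85 per Mb, with intervals that overlap.

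**Figure D3:**
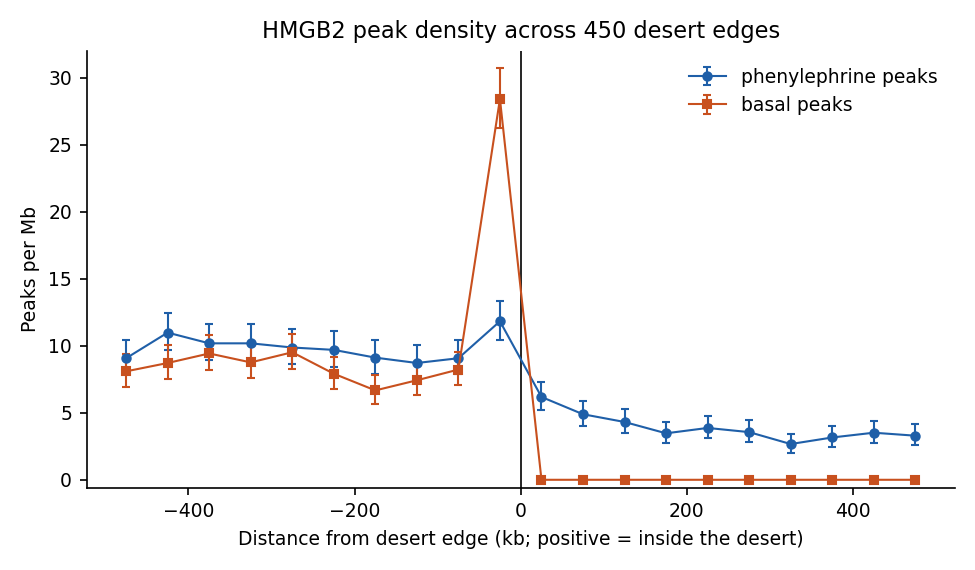
HMGB2 peaks per Mb (y axis) by distance from the edge of a basal desert in kb (x axis, positive inside), over 450 edges in steps of 50 kb, with exact Poisson 95% intervals. Phenylephrine peaks (circles) are at 9.07 per Mb at 50 to 100 kb outside and 11.8 in the 50 kb just outside. Inside they are at 6.18 in the first 50 kb and 3.47 at 150 to 200 kb. Basal peaks (squares) are 0 inside by the rule, and the basal value next to the edge includes the peak that forms it.

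Members near an edge and far from it had similar scores. The median score was 59.5 for the 136 members within 50 kb of an edge and 60.4 for the 351 members more than 500 kb away, and the median widths were 537 and 520 bp. The members lay a median of 320 kb from the nearer edge (quartiles 128 and 537 kb). Only 10 further phenylephrine peaks crossed an edge and were left out by the rule.

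The basal peaks that form the edges scored lower than the rest of their own list. A score of at least 100 was reached by 24.0% (20.2 to 28.3%) of them and by 32.4% (31.9 to 32.8%) of the others. The 421 edge peaks had a median score of 69.1, against 76.6 for the other basal peaks, and a median width of 903 bp against 1116 bp. Of the edge peaks 10.7% (8.08 to 14.0%) overlapped a phenylephrine peak by at least 1 bp, and of the others 19.8% (19.4 to 20.2%). In 29 cases a single basal peak separated 2 deserts, which joined 50 deserts into longer, nearly empty regions. Of these 29 lone basal peaks 2 overlapped a phenylephrine peak, 6.90% (1.91 to 22.0%), and their median score was 61.7. Both of these scored above 100 in the basal list. The one on chromosome 10, at 23813886 to 23814927, scored 307.9 between deserts of 1.63 and 1.04 Mb, and the one on chromosome 4, at 92641532 to 92643541, scored 114.25 and was 2010 bp wide. The longest joined region was on chromosome 13 (23295661 to 30425378), 7.13 Mb with 1 basal and 10 phenylephrine peaks.

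Desert peaks scored a little lower than other phenylephrine peaks. The median score was 59.8 (interval of the median 59.4 to 60.7), against 62.4 (62.3 to 62.6) for the 40328 phenylephrine peaks outside. Desert peaks never overlap a basal peak, while 8646 of the outside peaks do, and those had a median of 70.2. Against the 31682 outside peaks without basal overlap, with a median of 61.2 (61.0 to 61.3), the difference shrank to 1.34. Against the 2000 peaks in stretches of 0.5 to 1 Mb, with a median of 60.9 (60.3 to 61.5), the intervals overlapped. A fall of this size is small beside the quartiles of the members, 54.97 and 67.9.

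Strong peaks were rare in deserts. A score of at least 100 was reached by 7.24% of all phenylephrine peaks and by 35 members, 2.86% (2.06 to 3.95%). Among outside peaks without basal overlap it was 4.04% (3.83 to 4.26%), and these intervals overlap. The 35 strong members lay in 33 deserts, so they were not gathered in a few. In the top 25% of the list by score lay 16.1% of the members (14.2 to 18.3%) and 20.4% of the outside peaks without basal overlap (20.0 to 20.9%). In the bottom 25% the shares were 26.6% (24.2 to 29.1%) and 27.1% (26.6 to 27.6%). In stretches of 0.5 to 1 Mb, 18.9% of peaks (17.2 to 20.7%) lay in the top 25% and 3.8% (3.05 to 4.73%) scored at least 100, and both intervals overlap those of the members.

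The strongest member lay on chromosome 8 at 7702997 to 7703402, with a score of 162.6 and rank 346 among the phenylephrine peaks. It was narrow, 406 bp, and the next phenylephrine peak was 170 kb away. The others of the top 5 lay on chromosome 7 at 126806012 to 126806524 (score 153.6, 513 bp), chromosome 15 at 12150164 to 12151111 (144.0, 948 bp), chromosome 6 at 70512122 to 70512876 (140.6, 755 bp) and chromosome 14 at 109304322 to 109304826 (138.8, 505 bp). The nearest other phenylephrine peak was 14.9 to 170 kb away from these 5. The member on chromosome 15 combined strength and width, 499 kb from the nearer edge in a desert of 1.04 Mb, and so close to its middle. By comparison the highest score of any outside peak without basal overlap was 419.8.

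Desert peaks were also narrower. Their median width was 521 bp (516 to 525), against 586 bp (585 to 588) outside and 567 bp (566 to 569) outside without basal overlap. It was 714 bp for outside peaks that overlap a basal peak. In stretches of 0.5 to 1 Mb the median was 528 bp (524 to 533), within counting error of the deserts. Of the members 1 reached 1000 bp, 0.0818% (0.0144 to 0.462%), against 2.86% (2.68 to 3.05%) of outside peaks without basal overlap. In stretches of 0.5 to 1 Mb the share was 0.5% (0.272 to 0.918%), which overlaps that of the members. The widest member, 1065 bp wide with a score of 97.9, was on chromosome 15 at 62694463 to 62695527, 1150 kb from the nearer edge. At the other end the narrowest member was 271 bp wide, and 222 bp was the narrowest width outside.

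Desert peaks were narrower than the outside peaks without basal overlap at each level of score. When the list was cut into 4 parts by score, the members' median widths were 523, 512, 517 and 519 bp from the lowest part to the highest. Outside peaks without basal overlap had 563, 556, 569 and 603 bp. In stretches of 0.5 to 1 Mb the medians were 525, 536, 525 and 533 bp, with intervals that overlap those of the members in all 4 parts. The members' medians varied by 11 bp over the 4 parts, and outside the part with the highest scores was the widest. In all, the members covered 651 kb of the 356 Mb of desert.

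Desert peaks lay farther apart than other phenylephrine peaks. The median distance to the nearest phenylephrine peak was 69.1 kb (60.3 to 77.2), against 14.9 kb (14.7 to 15.1) outside and 42.8 kb (39.2 to 45.9) in stretches of 0.5 to 1 Mb. Another peak within 10 kb was found for 133 members, 10.9% (9.25 to 12.7%), where 35.5% of all phenylephrine peaks had one. No other peak lay within 100 kb for 39.5% of members (36.8 to 42.3%) and for 3.59% of peaks outside (3.41 to 3.77%). For 1072 of the 1223 members the nearest peak was in the same desert. Wider spacing comes with the lower density, and no measure of clustering beyond density was tested.

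**Figure D4:**
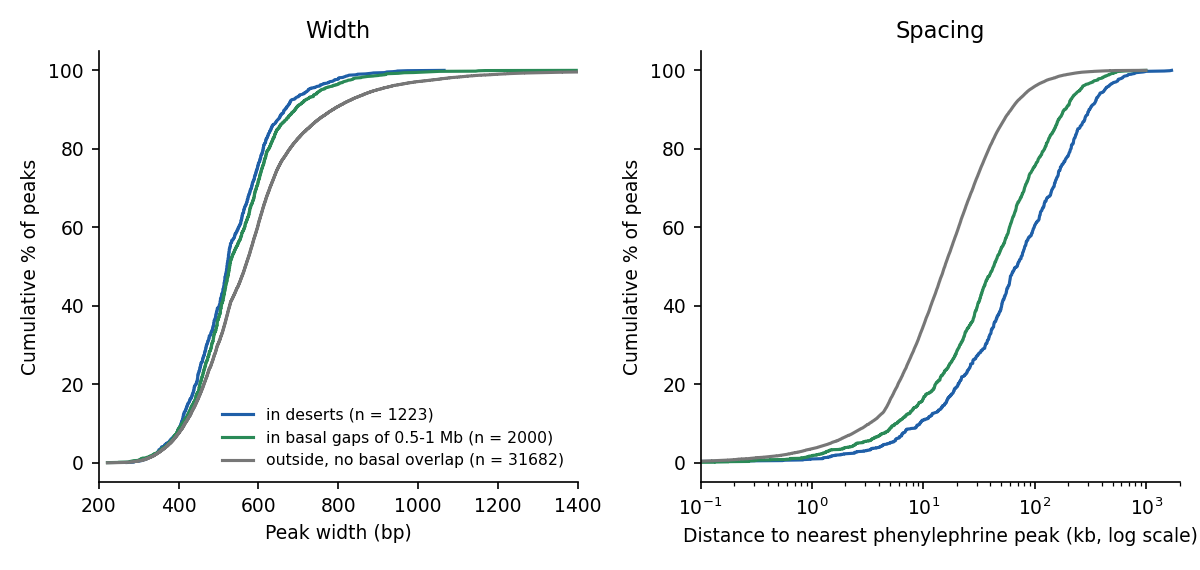
Cumulative percent of phenylephrine peaks by width in bp (left) and by distance to the nearest other phenylephrine peak in kb (right, log scale), for 1223 peaks in deserts, 2000 in basal gaps of 0.5 to 1 Mb and 31682 outside deserts without basal overlap. Desert peaks are the narrowest (median 521 bp) and the farthest apart (median 69.1 kb), with the gaps of 0.5 to 1 Mb between the other sets in both plots.

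Close groups inside deserts were few. Linking members no more than 10 kb apart gave 62 groups, 57 of them pairs, and the longest held 3 peaks. The tightest run within 100 kb was on chromosome 5, with 6 peaks in 80.5 kb from 92159571 to 92240058, the second of them with a score of 90.0 (583 bp) and the others between 54.97 and 61.2. It lay 76.3 kb from the edge of a desert of 1.16 Mb.

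The scores of desert peaks repeated one another to a high degree. Plotted against width, most members fell on a set of narrow bands, in which the score went down as the peak became wider. Peaks of equal width on one band had the same score to both decimals. Of the 12 members 516 bp wide, 10 scored 51.54, and so did 51 of the 114 outside peaks of that width. Of the 11 members 448 bp wide, 9 scored 59.52, and so did 35 of 82 outside. These widths are examples, and the shares over all common widths, which took in 1213 members, were lower. There 57.6% of the members had the commonest outside score of their width, against 25.5% of the outside peaks. Among the 104 members narrower than 400 bp there were 18 different scores, and 84 of these members shared 5 of them.

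**Figure D5:**
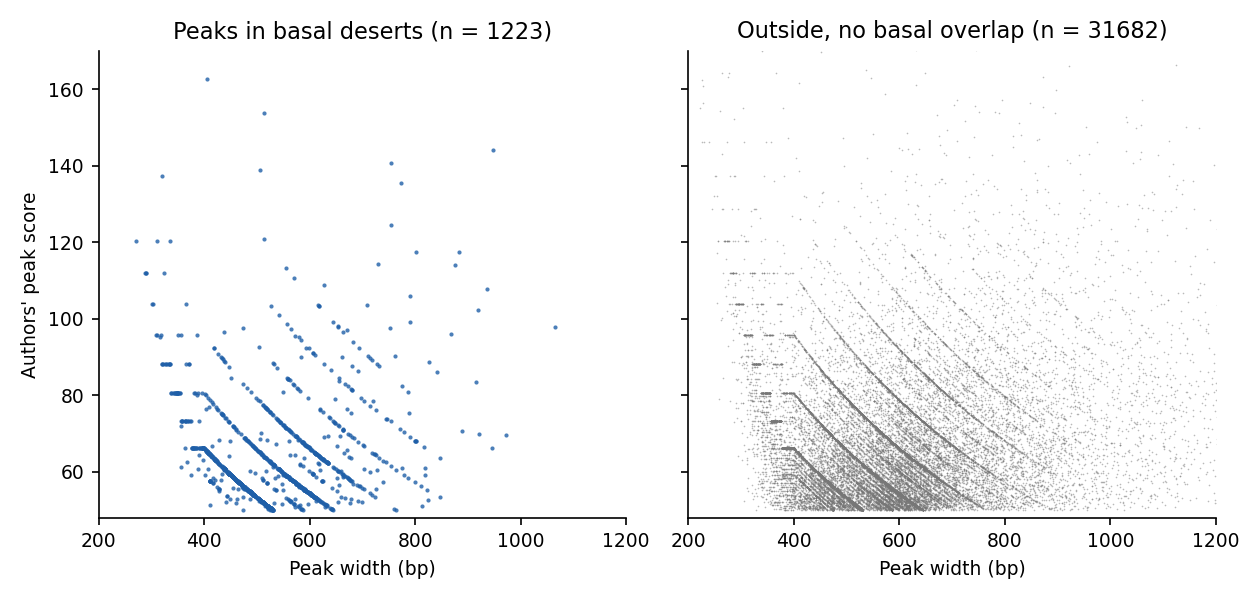
Authors' score (y axis) against width in bp (x axis) for each phenylephrine peak in deserts (left, n = 1223) and for those outside without basal overlap (right, n = 31682, of which 333 lie beyond the axes). In deserts 89.6% of the peaks repeat the width and score of an outside peak and form bands; outside the bands are overlaid by many peaks that lie between them.

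An exact match in both width and score with at least 1 phenylephrine peak outside deserts was found for 1096 of the 1223 members, 89.6% (87.8 to 91.2%). An outside peak had such a match with another outside peak in 53.3% of cases (52.8 to 53.8%). The share was 60.7% without basal overlap and 26.4% with it. Among peaks of similar width the gap was smaller. At 450 to 600 bp the share was 95.7% (93.8 to 97.0%) in deserts and 75.7% (74.96 to 76.4%) outside without basal overlap. The share went up with the length of the basal gap, from 49.6% (48.8 to 50.5%) under 50 kb to 68.5% at 100 to 250 kb, 84.9% (83.3 to 86.4%) at 500 to 1000 kb and 90.3% (86.1 to 93.4%) in deserts of 2 Mb or more. Of the 35 strong members 11 had a match. In the basal list, 21.8% of peaks shared width and score with another basal peak. Read numbers behind a peak are not in the columns used here, so what sets the bands was not tested.

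Deserts were unevenly spread over the chromosomes. They took up 28.0% of chromosome 13 and 23.5% of chromosome 14, but 4.13% of chromosome 17 and 5.16% of chromosome 12. The number of members was highest on chromosome 2, with 170 in 27 deserts, followed by chromosomes 4 (112 in 23), 14 (108 in 19) and 5 (102 in 18). Chromosome 12 had 8 in 2 deserts. The density inside deserts varied less than the number: it was highest on chromosome 17, at 6.74 per Mb (4.44 to 9.81) in 3 deserts, and lowest on chromosome 8, at 1.98 (1.11 to 3.27) in 5 deserts of which 2 were unfilled. Chromosome 13, with the most desert sequence for its size, had 2.42 per Mb (1.90 to 3.03), and chromosome 2 had 4.16 (3.56 to 4.83). On each of the 20 chromosomes the density inside deserts was below that outside, which was lowest on chromosome 2 (15.1 per Mb) and highest on chromosome 10 (23.5 per Mb).

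The flanks of a desert were only weakly related to how many peaks lay inside. Within 1 Mb on both sides the median was 9.0 phenylephrine and 7.0 basal peaks per Mb. Across the 225 deserts, the density of phenylephrine peaks in these flanks and inside had a Spearman's rho of 0.25, and the density of basal peaks in the flanks had one of 0.06. Flanks of neighbouring deserts overlap, and a flank can include part of another desert. All values come from 1 pair of lists, so these are descriptions. In 201 deserts the inside had fewer phenylephrine peaks per Mb than the flanks, and in 24 it had more, the chromosome 2 desert with 17 peaks among them.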

How the data were processed

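HMGB2 ChIP-seq peaks of 1 basal and 1 phenylephrine library were used. The submitters' processing notes name Bowtie 0.12.7 (an aligner), MACS 1.4.1 (a peak caller) and build rn4. For each library the authors deposited its peaks with a score for each (4 columns in bedGraph form, per the file headers). The sources used here give neither the scale of this score nor the read depth, control library or calling threshold, so scores were compared within 1 list only. Starts are printed with 1 added and may be 1 bp too high, since the lowest start in both lists is 1.

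Deserts, peaks inside them and distances (edge to edge) were computed with scipy 1.17.1, numpy 2.4.6 and pandas 2.3.3 under Python 3.11.15, tested on simulated data and checked with bedtools 2.31.1, which gave the same 1223 peaks. Figures used matplotlib 3.10.9. Intervals are Wilson for shares, exact Poisson for counts and binomial for medians, at 95%, over peaks only. Members, sets and alternatives were chosen with earlier results of these data known. The rule for named regions took the 5 deserts with the most members, the 5 longest, the 5 longest unfilled (all 7 are given), the 5 highest-scoring, widest and most distant members, the tightest run, and the 2 regions on each side of the limit. Other places were named after their values were seen, and the repeats of width and score, the edge peaks and the flanks were added then too. Gene annotation and sequence of rn4 were not used here.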

Additional observations from a re-analysis of the deposited data

Results flagged for a closer look

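Chromosome X lies outside the rule, and peaks there were set apart because they are not part of the comparisons above. With the same definition X had 37 basal deserts, 99.8 Mb or 62.2% of its 160 Mb span, and the longest was 11.3 Mb. They held 190 phenylephrine peaks, 31.1% of the 610 on X, and all 37 were filled. The density was 1.90 per Mb (1.64 to 2.19) inside and 6.94 per Mb in the rest of X. Desert peaks of X had a median score of 60.3 and a median width of 518 bp, against 62.2 and 552 bp for the other phenylephrine peaks of X, in the same order as on chromosomes 1 to 20.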

How the results depend on the processing

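No paired analysis was possible because there is 1 library per group, and leaving one out ends the comparison. The read depth is unknown, which limits all values. Of the 7 results below, the ratios of density and spacing and the differences in score and width kept their direction under the alternatives run. The number of members, the share filled and the mirror count have no direction that could turn. The order of members against mirror peaks turned, with 35 and 38 for a score of at least 100. That limit keeps a smaller part of the phenylephrine list. The midpoint rule, merging within 1 kb, leaving out chromosome 2 and counting chromosome ends (which added no basal desert and 2 peaks to the mirror count, 154) kept all 7 results within their limits.

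The number of members was 3223 with deserts of at least 0.5 Mb, 258 with at least 2 Mb and 35 with a score of at least 100. The share of deserts filled was 93.5% at 0.5 Mb, 92.9% at least 50 kb from the edges and 14.7% for a score of at least 100. The ratio of density inside to outside, 0.187, was 0.219 at 0.5 Mb, 0.157 at 2 Mb and 0.0727 for a score of at least 100. With equal numbers of top-scoring peaks, a setting that shortened both lists, it was 0.217. It was 0.172 with X, and 0.606 against gaps of 0.5 to 1 Mb (a set chosen after seeing the data).

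The difference in median score, -2.56, was -1.57 at 2 Mb, -5.13 for a score of at least 100, -3.12 with equal numbers, -1.34 against outside peaks without basal overlap and -1.04 against gaps of 0.5 to 1 Mb. That in median width, -65 bp, was -285, -98, -46 and -7 bp under the last 4 of these settings. For a score of at least 100 the median widths were 556 bp in deserts and 841 bp outside. Outside peaks of that score without basal overlap had a median of 662.5 bp, closer to the members. The ratio of median spacing, 4.64, was 3.63 at 0.5 Mb, 7.25 at 2 Mb, 6.74 for a score of at least 100, 3.69 with equal numbers and 1.61 against gaps of 0.5 to 1 Mb. The mirror count, 152 basal peaks, was 646 at 0.5 Mb, 10 at 2 Mb, 38 for a score of at least 100 and 295 with equal numbers. The cause of these shifts was not tested.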
